A study of Mus musculus with 10 samples.

Results

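The Slc25 genes encode the mitochondrial carrier family, and their transcripts were described in left ventricles of control mice and of mice with a model of HFpEF, heart failure in which the ejection fraction is preserved. Members were the rows of the deposited tables whose symbol begins with Slc25a and a digit, without a pseudogene suffix, and whose level was above 0 in at least 9 of 10 mice. The tables listed 48 such symbols among 29564 genes, and 41 met the rule. Of the others, 1 was a pseudogene (Slc25a5-ps) and 6 were above 0 in fewer than 9 mice. Slc25a43 lay just inside the rule, at 0 counts in 1 mouse and 1 to 7 counts in the others, and Slc25a2 just outside it, with 1 to 6 counts in 8 mice. Slc25a40, a paralog of the glutathione carrier Slc25a39, was outside because it was listed at 0 in 4 mice (TT-587, TT-588, TT-590 and TT-592), while the other 6 mice had estimated counts of 64.1 to 256. Slc25a21 had at most 4 counts in any mouse, Slc25a48 had 1 count in each of 2 mice, and Slc25a41 and Slc25a54 had none.

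Carriers of this family sit mostly in the mitochondrial inner membrane, which small charged molecules do not cross on their own. Each carrier moves a small set of substrates, often by exchanging a molecule inside for a molecule outside, and the exchange of ADP for ATP links respiration to the energy use of the contracting heart. Other carriers bring in phosphate, acylcarnitines, amino acids, coenzymes and iron, or shuttle reducing equivalents between cytosol and matrix.

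The data were bulk RNA-seq of left ventricle from 5 non-failing control mice (TT-583, TT-584, TT-585, TT-586 and TT-587) and 5 mice of the HFD+mTAC model (TT-588, TT-589, TT-590, TT-591 and TT-592). All were wild-type C57BL6 mice (C57BL/6J in the study's methods) that received vehicle without drug, and each library came from a single mouse. Per the study's methods, the HFD+mTAC mice were males that had moderate transverse aortic constriction (mTAC, a partial narrowing of the aorta that loads the left ventricle) at 11 weeks of age and were then fed a high-fat diet (HFD) with 60 kcal% fat. The control mice were males with no such surgery, fed chow with 10 kcal% fat, so diet and surgery cannot be told apart in this comparison. The study's methods give daily dosing with vehicle (10 mL/kg) for 6 to 9 weeks over all its models. For HFD+mTAC mice the paper describes a start after 16 weeks of model induction and measurements at up to 6 weeks of dosing. It also describes sequencing of hearts taken 6 h after a single dose, and which schedule these libraries had was not settled here. In a bulk sample, fewer cells of a type and less RNA per cell cannot be told apart.

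Total estimated counts were 34170139 to 53672260 per library. Mitochondrially encoded transcripts took 49.5 to 52.7% of the counts in 7 libraries, 43.8 and 44.0% in the control mice TT-583 and TT-584, and 46.4% in the HFD+mTAC mouse TT-592. The 3 libraries with the low share had the highest summed TPM (a count per base of transcript as a share of all transcripts) over the genes tested, 161699 to 182716 against 121049 to 139979 in the others, so TPM is used here to compare genes with each other, and CPM (a count as a share of the counts of all tested genes, TMM-scaled) to compare groups. The 7 cardiomyocyte markers were all present, with a summed level of 9154 to 13744 TPM in every library. In HFD+mTAC mice 6 of the 7 had lower means, 2 of them with an unadjusted p under 0.05, and the groups overlapped in the sum. Of the fibroblast, endothelial, mural, macrophage, lymphocyte and erythroid markers and the 1 of 3 atrial markers that entered the test, none had an unadjusted p under 0.05. The 3 atrial markers summed to 1.37 to 2.51 TPM in control mice and 0.824 to 1.17 TPM in HFD+mTAC mice, without overlap. The atrial marker tested had a log2 fold change of -0.42. None of the 5 adipocyte markers had the counts to be tested, and they summed to at most 0.7 TPM. The 4 skeletal muscle markers summed to 18.5 TPM in TT-587 and 11.9 TPM in TT-592 against at most 1.44 TPM elsewhere. The 12 clock genes summed to 23.8 to 61.4 TPM in control mice and 44.9 to 85.9 TPM in HFD+mTAC mice, and 8 of the 10 tested were higher in HFD+mTAC mice, 3 of them with an unadjusted p under 0.05. The part of the cardiomyocyte, atrial, clock and skeletal muscle genes and of the mitochondrial share in the results on carriers was not tested.

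Carrier levels were dominated by a few genes. Slc25a4, the adenine nucleotide translocase of heart and muscle, ranked first in every mouse with 571 to 850 TPM in control mice and 460 to 658 TPM in HFD+mTAC mice. It held 50.6 to 57.9% of the summed TPM of the 41 carriers in control mice and 46.6 to 56.2% in HFD+mTAC mice. Together with Slc25a3, the phosphate carrier, and Slc25a5, a second adenine nucleotide translocase, it made up 74.8 to 85.5%. Next by mean TPM over all mice were Slc25a11, the oxoglutarate-malate carrier (64.2 TPM), Slc25a39, which imports glutathione (57.7 TPM), Slc25a20, which brings in acylcarnitines (16 TPM), and Slc25a12, an aspartate-glutamate carrier (15.5 TPM). At the other end, Slc25a18, a glutamate carrier, averaged 0.0155 TPM, and Slc25a31, an adenine nucleotide translocase known from testis, 0.0182 TPM. TPM divides a count by an effective transcript length, estimated in each library, so this order and these shares depend on those lengths. Slc25a39 and Slc25a34 had close means of 180 and 176 CPM but 57.7 and 3.99 TPM. Their lengths were 397 to 662 and 5975 to 8073 bases. The only transcript of Slc25a34 in GENCODE M21 has 2670 bases. As a share of the counts of all tested genes the family took 1.26 to 1.41% in control mice and 1.13 to 1.31% in HFD+mTAC mice, ranges that overlap.

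**Figure D1:**
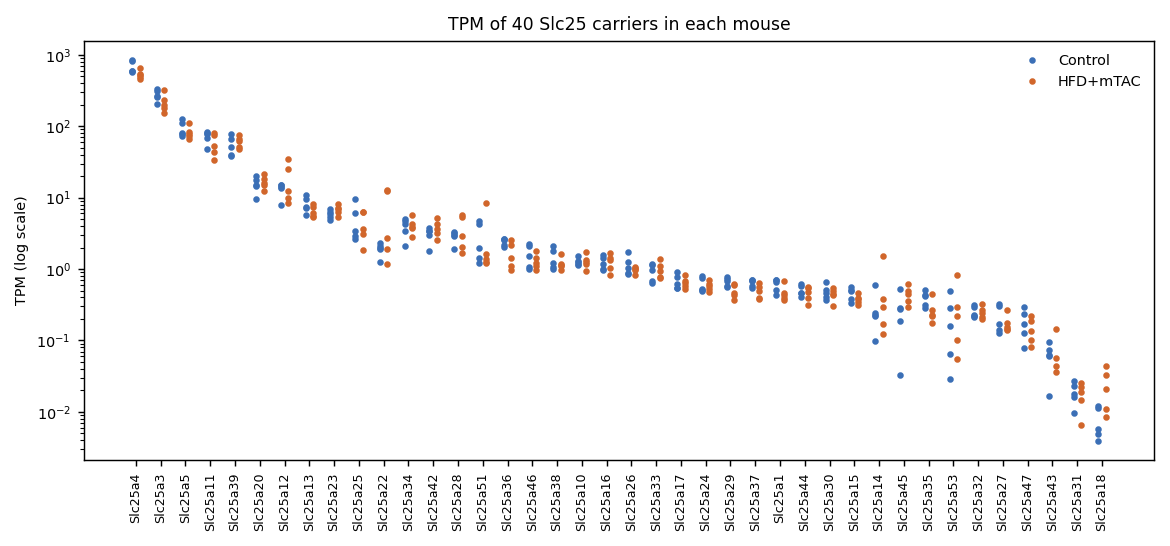
TPM of 40 carriers (horizontal axis, in order of mean TPM) in each mouse on a log scale, with control mice in blue and HFD+mTAC mice in orange and values of 0 left out. Levels ran from a mean of 609 TPM for Slc25a4 to 0.0155 TPM for Slc25a18, and the groups overlapped in every carrier drawn.

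Between the groups, none of the 41 carriers passed the test. The smallest adjusted p was 0.376 (edgeR's quasi-likelihood test, Benjamini-Hochberg over 13290 genes), in a comparison where 8 genes were called in all (0.0602%), 6 of them higher (0.0451%) and 2 lower (0.015%) in HFD+mTAC mice. DESeq2 called none of the 41 either, with a smallest adjusted p of 0.0989, among 118 calls over all genes, and gave 7 of them an unadjusted p under 0.05. The carriers and the gene lists below were chosen with earlier results of these data known, which limits contrasts with all tested genes. At an unadjusted p under 0.05, 8 of the 41 carriers (19.5%) differed against 8.27% of all tested genes. Of these, 6 were higher in HFD+mTAC mice, where the share over all genes was 4.54%, and 2 were lower, where it was 3.72%. The 8 were Slc25a45, Slc25a20, Slc25a18, Slc25a42, Slc25a34 and Slc25a23 on the higher side and Slc25a35 and Slc25a4 on the lower side. Leaving out any single mouse left 2 to 7 such carriers, with the 2 reached without TT-583, 3 without TT-589, 4 without TT-587 and 5 without TT-584, TT-588 or TT-590. By sign alone, 21 carriers had a higher and 20 a lower mean, and the median log2 fold change was 0.03 against 0.00 over all tested genes. The CPM of 1 carrier, Slc25a45, did not overlap between groups, against 1.96% of all tested genes (1.08% in this direction), and no carrier was free of overlap in TPM, against 0.692%.

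**Figure D2:**
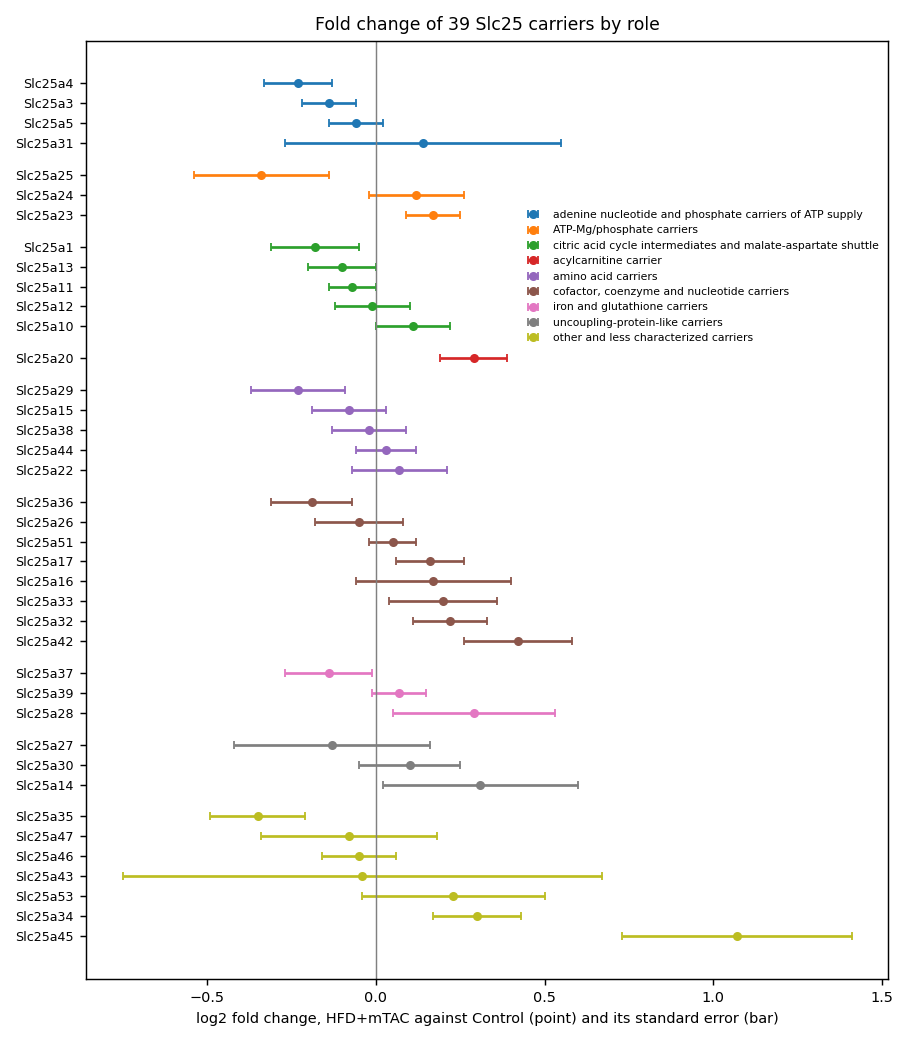
Log2 fold change of HFD+mTAC against control mice (points) with its standard error (bars) from edgeR for 39 carriers, coloured by role and sorted within each role. Slc25a18 is left out because its counts were at most 2 in every control mouse, and Slc25a45, at 1.07, lies apart from the other carriers drawn, which run from -0.35 to 0.42.

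Among the carriers of ATP supply, Slc25a4 (chr8:46206797-46211284, minus strand, GRCm38) exchanges cytosolic ADP for matrix ATP. Its CPM, in order of mouse number as are all such values below, were 8804, 9602, 8259, 7705 and 9178 in the control mice and 6463, 7503, 7938, 8255 and 6956 in the HFD+mTAC mice. The means were 8710 ± 748 CPM in control mice and 7423 ± 725 CPM in HFD+mTAC mice (SD, n = 5 each), with a log2 fold change of -0.23 (SE 0.10, edgeR adjusted p = 0.545). All 5 HFD+mTAC mice lay below the control median and 3 of them below every control mouse, but the difference did not pass the test. Without the 3 libraries of low mitochondrial share the log2 fold change was -0.15. Without the 2 libraries with skeletal muscle genes it was -0.19. Both alternatives were chosen after seeing the data, and the unadjusted p was above 0.05 in each. Among the 10 fits that left out a single mouse, the unadjusted p was under 0.05 in 5.

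Slc25a3 (chr10:91116574-91124059, minus strand) imports the phosphate used by ATP synthase. It had CPM of 1784, 1838, 1815, 1867 and 1863 in the control mice and 1651, 1730, 1606, 1486 and 1841 in the HFD+mTAC mice, with a log2 fold change of -0.14 (SE 0.08, edgeR adjusted p = 0.686). The control mice were close together, with an SD of 34.4 CPM around 1833, and 4 of the 5 HFD+mTAC mice lay below all of them, while TT-592 at 1841 CPM lay among them. Slc25a5 (chrX:36795651-36798807, plus strand) serves the same exchange as Slc25a4. Its CPM were 405, 453, 367, 380 and 374 in the control mice and 362, 388, 376, 384 and 382 in the HFD+mTAC mice, with a log2 fold change of -0.06 (SE 0.08, edgeR adjusted p = 0.895), and the groups overlapped. Its estimated count differed from a whole number by more than 0.01 in 10 of 10 mice, as happens when reads are divided between genes, so its level is uncertain. Slc25a31 had 3 to 9 counts per library. Of the 4 carriers in this role, 3 had lower means and 1 a higher mean in HFD+mTAC mice.

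The ratio of Slc25a5 to Slc25a4, which does not depend on how a library is scaled, was 0.132, 0.15, 0.133, 0.138 and 0.124 in the control mice and 0.159, 0.145, 0.143, 0.15 and 0.165 in the HFD+mTAC mice in TPM. On the log2 scale the mean was -2.89 ± 0.10 in control and -2.72 ± 0.09 in HFD+mTAC mice (SD, n = 5 each), a difference of 0.17. The two-sided exact permutation test gave p = 0.0397, where the smallest p that 5 mice against 5 allow is 0.00794, and adjusted over the 5 pairs of carriers compared it was 0.159. All 5 HFD+mTAC mice lay above the control median, and the control mouse TT-584 at 0.150 lay among them. The difference did not pass the correction, and no more did that of the other 4 pairs, which are given with their roles.

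In the group that exchanges ATP-Mg for phosphate, Slc25a23 (chr17:57043711-57059863, minus strand) was the most abundant by mean TPM. Its CPM were 77.2, 74.3, 85.2, 83.7 and 74.7 in the control mice and 84.8, 91.5, 97.2, 80.9 and 89.2 in the HFD+mTAC mice, with a log2 fold change of 0.17 (SE 0.08, edgeR adjusted p = 0.6). All 5 HFD+mTAC mice lay above the control median and 3 above every control mouse. The log2 fold change of Slc25a23 was 0.15 without the 2 libraries with skeletal muscle genes and 0.13 without the 3 of low mitochondrial share, with an unadjusted p above 0.05 in both. Its unadjusted p was under 0.05 in 3 of the 10 fits that left out a single mouse, and above 0.05 with DESeq2. Slc25a24 (log2 fold change 0.12) and Slc25a25 (-0.34, SE 0.20) completed this group, so 2 carriers had higher and 1 had lower means.

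The carriers of citric acid cycle intermediates and of the malate-aspartate shuttle numbered 5, and none had an unadjusted p under 0.05. Slc25a11 (chr11:70644196-70647479, minus strand) had 679, 687, 690, 695 and 642 CPM in the control mice, and in HFD+mTAC mice 619, 668, 683 and 678 CPM in TT-588, TT-589, TT-590 and TT-592 and the lowest value of all in TT-591, with a log2 fold change of -0.07 (SE 0.07, edgeR adjusted p = 0.877). Every HFD+mTAC mouse lay below the control median and 2 lay below all controls. Slc25a12 (chr2:71271063-71367749, minus strand) and Slc25a13 (chr6:6041218-6217173, minus strand) are the 2 aspartate-glutamate carriers, the step of the shuttle that depends on the membrane potential. Slc25a12 had CPM of 260, 277, 304, 302 and 218 in the control mice and 302, 294, 259, 220 and 280 in the HFD+mTAC mice, with a log2 fold change of -0.01 (SE 0.11, edgeR adjusted p = 0.995), and its groups covered the same range of CPM. Slc25a13 had CPM of 182, 161, 170, 181 and 137 in the control mice and 168, 166, 143, 130 and 166 in the HFD+mTAC mice, with a log2 fold change of -0.10 (SE 0.10, edgeR adjusted p = 0.859). Its HFD+mTAC mice all lay below the control median within an overlapping range, and its log2 fold change was -0.19 without the 2 libraries with skeletal muscle genes. The ratio of Slc25a13 to Slc25a12 differed by -0.10 on the log2 scale in counts (exact permutation p = 0.143, adjusted p = 0.238) and by -0.57 in TPM (p = 0.119, adjusted p = 0.188). Slc25a1 (chr16:17925223-17928219, minus strand), which exports citrate, had CPM of 11, 8.78, 9.16, 11.2 and 13.1 in the control mice and 8.91, 8.96, 9.77, 9.84 and 9.52 in the HFD+mTAC mice, with a log2 fold change of -0.18 (SE 0.13, edgeR adjusted p = 0.79), which was -0.09 without TT-587. Slc25a10, the dicarboxylate carrier, had a log2 fold change of 0.11. The 4 enzymes of the malate-aspartate shuttle had lower means in HFD+mTAC mice, and none had an unadjusted p under 0.05. The smallest p was that of Mdh1, the cytosolic malate dehydrogenase, with a log2 fold change of -0.15 (SE 0.09, edgeR adjusted p = 0.74). Got1, the cytosolic aspartate aminotransferase, followed with a log2 fold change of -0.11 (SE 0.10, edgeR adjusted p = 0.839).

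Slc25a20 (chr9:108662088-108684641, plus strand) carries acylcarnitines into the matrix in exchange for free carnitine, the step between the carnitine palmitoyltransferases of the outer and inner membranes. Its CPM were 256, 279, 260, 271 and 201 in the control mice and 322, 350, 293, 274 and 309 in the HFD+mTAC mice. The means were 253 ± 30.6 CPM in control mice and 310 ± 29.1 CPM in HFD+mTAC mice (SD, n = 5 each), with a log2 fold change of 0.29 (SE 0.10, edgeR adjusted p = 0.443). Every HFD+mTAC mouse lay above the control median and 4 above every control mouse, with TT-591 at 274 CPM inside the control range. Its unadjusted p stayed under 0.05 in 9 of the 10 fits that left out a single mouse, the exception being TT-589. It was above 0.05 with transcript length in the fit, at a log2 fold change of 0.25, and with limma on log2(TPM + 1), at 0.29.

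The enzymes on either side of this carrier had means on the same side. All 4 enzymes of the carnitine shuttle on the list were higher in HFD+mTAC mice, each with an unadjusted p under 0.05 (4.54% of all tested genes in this direction), and none passed the test (smallest adjusted p 0.197, edgeR). This list was chosen with earlier results of these data known, so the contrast is not independent of them. Cpt1a, which forms acylcarnitines at the outer membrane, had CPM of 52.6, 61, 63, 58.2 and 51.2 in the control mice and 85.4, 83.3, 72.3, 67.4 and 72.6 in the HFD+mTAC mice, without overlap (1.08% of all tested genes in this direction), and a log2 fold change of 0.41 (SE 0.09, edgeR adjusted p = 0.197). Cpt2, which returns the acyl group to coenzyme A in the matrix, had CPM of 270, 277, 277, 276 and 206 in the control mice and 342, 378, 302, 269 and 349 in the HFD+mTAC mice, with a log2 fold change of 0.33 (SE 0.11, edgeR adjusted p = 0.426). Its groups overlapped through TT-591. The carnitine acetyltransferase Crat and the muscle form Cpt1b had log2 fold changes of 0.31 and 0.27. The log2 fold change of Cpt1a was 0.39 without the 2 libraries with skeletal muscle genes and 0.42 without the 3 of low mitochondrial share. That of Cpt2 was 0.23 and 0.35, with an unadjusted p above 0.05 in both.

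**Figure D3:**
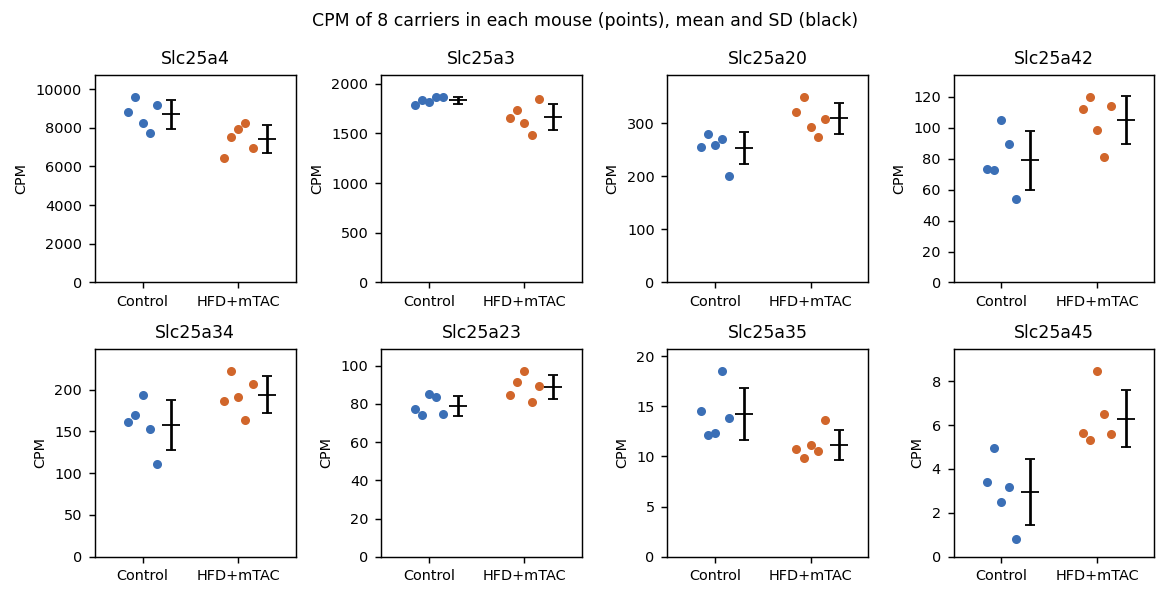
CPM (TMM-scaled, each axis from 0) of 8 carriers in the 5 control mice (blue) and the 5 HFD+mTAC mice (orange), with the mean and SD of each group in black. The groups overlap in 7 of the 8, and in Slc25a45 the highest control mouse is at 4.94 and the lowest HFD+mTAC mouse at 5.32 CPM.

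The amino acid carriers numbered 6, with 3 higher and 3 lower means. Slc25a22 (chr7:141429744-141437892, minus strand) and Slc25a18 (chr6:120773578-120794336, plus strand) both carry glutamate with protons. Slc25a22 had CPM of 43.9, 40.6, 48.1, 50.6 and 35.3 in the control mice and 40, 51.7, 51.1, 34.6 and 52.6 in the HFD+mTAC mice, with a log2 fold change of 0.07 (SE 0.14, edgeR adjusted p = 0.929), and the groups overlapped. Slc25a18 had counts of 1, 2, 1, 1 and 2 in the control mice and 2, 2, 7, 6 and 3 in the HFD+mTAC mice. Its unadjusted p was under 0.05 (edgeR adjusted p = 0.504), all control mice lay at or below 2 counts, and no fold is given at such counts. The ratio of the 2 rests on the same few counts of Slc25a18, and in TPM also on the effective length of Slc25a22. That length was 501 and 532 bases in TT-588 and TT-589 and 3374 to 4095 in the other HFD+mTAC mice. The TPM ratio was 1122 and 1467 in those 2 mice and 35.7 to 130 in the other HFD+mTAC mice, and no difference in the ratio was read. On the log2 scale it differed by -0.42 in TPM (exact permutation p = 0.706) and by -1.50 in counts (p = 0.0635, adjusted p = 0.159). Slc25a29, a carrier of basic amino acids, had a log2 fold change of -0.23, Slc25a15, the ornithine carrier, -0.08, Slc25a38, which supplies glycine for heme synthesis, -0.02, and Slc25a44, a carrier of branched-chain amino acids, 0.03.

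The cofactor, coenzyme and nucleotide carriers numbered 9, of which 6 had higher and 3 lower means, with a median log2 fold change of 0.16. Slc25a42 (chr8:70184340-70212305, minus strand) exchanges coenzyme A for adenine nucleotides. Its CPM were 73.2, 72.8, 105, 89.5 and 54 in the control mice and 112, 120, 98.3, 81.2 and 114 in the HFD+mTAC mice. The means were 79 ± 19.4 CPM in control mice and 105 ± 15.8 CPM in HFD+mTAC mice (SD, n = 5 each), with a log2 fold change of 0.42 (SE 0.16, edgeR adjusted p = 0.504). The HFD+mTAC mice all lay above the control median and 3 above every control mouse, and the lowest value was that of the control mouse TT-587. Without TT-587 and TT-592, the libraries with skeletal muscle genes, the log2 fold change was 0.28, and without the 3 libraries of low mitochondrial share it was 0.31, in each case with an unadjusted p above 0.05. Among the 10 fits that left out a single mouse, the unadjusted p of Slc25a42 was under 0.05 in 4.

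Slc25a33 (chr4:149744036-149774277, minus strand) and Slc25a36 (chr9:97074961-97111157, minus strand) both carry pyrimidine nucleotides. Slc25a33 had CPM of 23, 20.8, 22, 22.4 and 19.2 in the control mice and 16.5, 19.8, 31.8, 27 and 28.5 in the HFD+mTAC mice, with a log2 fold change of 0.20 (SE 0.16, edgeR adjusted p = 0.802). That value was 0.09 without TT-590 and 0.31 without TT-588. In the HFD+mTAC group 3 mice lay above every control mouse and TT-588 below all of them. Slc25a36 had CPM of 81.6, 80.1, 78, 66.1 and 85.3 in the control mice and 83.7, 62, 56.1, 62.3 and 78 in the HFD+mTAC mice, with a log2 fold change of -0.19 (SE 0.12, edgeR adjusted p = 0.718), and 3 HFD+mTAC mice lay below every control mouse. Their ratio was 0.446, 0.432, 0.44, 0.265 and 0.315 in the control mice and 0.299, 0.693, 0.969, 0.777 and 0.634 in the HFD+mTAC mice in TPM, a log2 difference of 0.76 (exact permutation p = 0.0635, adjusted p = 0.159), and in counts the difference was 0.37 (p = 0.23). A further 5 carriers of this role had log2 fold changes of -0.05 (Slc25a26, which imports S-adenosylmethionine) to 0.22 (Slc25a32, the folate and FAD carrier).

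Among the iron and glutathione carriers, Slc25a39 (chr11:102402985-102407946, minus strand) had CPM of 190, 183, 179, 175 and 153 in the control mice and 170, 175, 205, 175 and 195 in the HFD+mTAC mice, with a log2 fold change of 0.07 (SE 0.08, edgeR adjusted p = 0.902). The mitoferrins Slc25a28 (chr19:43663801-43674881, minus strand) and Slc25a37 (chr14:69241848-69285112, minus strand) import iron for heme and iron-sulfur clusters, and Slc25a37 is the form known from red cell precursors. Slc25a28 had CPM of 11.9, 12.9, 13.3, 12.6 and 9.84 in the control mice and 23.1, 13.2, 10.2, 8.47 and 18.7 in the HFD+mTAC mice, with a log2 fold change of 0.29 (SE 0.24, edgeR adjusted p = 0.813). TT-588 and TT-592 lay above all controls and TT-591 below all of them, and the log2 fold change was 0.06 without TT-588 and 0.12 without TT-587 and TT-592, the 2 libraries with skeletal muscle genes. Slc25a37 had CPM of 26.6, 26.2, 33.3, 35.3 and 40.5 in the control mice and 31.1, 28.8, 24.8, 31.7 and 29.8 in the HFD+mTAC mice, with a log2 fold change of -0.14 (SE 0.13, edgeR adjusted p = 0.833). It was -0.06 without the 2 libraries with skeletal muscle genes and -0.32 without the 3 of low mitochondrial share, the latter with an unadjusted p under 0.05 (edgeR adjusted p = 0.934). The ratio of Slc25a37 to Slc25a28 was 0.182 to 0.349 in control and 0.087 to 0.327 in HFD+mTAC mice in TPM (log2 difference -0.57, exact permutation p = 0.151, adjusted p = 0.188), and in counts the log2 difference was -0.32 (p = 0.31). The erythroid markers summed to 90.2 to 877 TPM in control and 95.4 to 861 TPM in HFD+mTAC mice. The count of Slc25a28 was not whole in 10 of 10 mice.

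**Figure D4:**
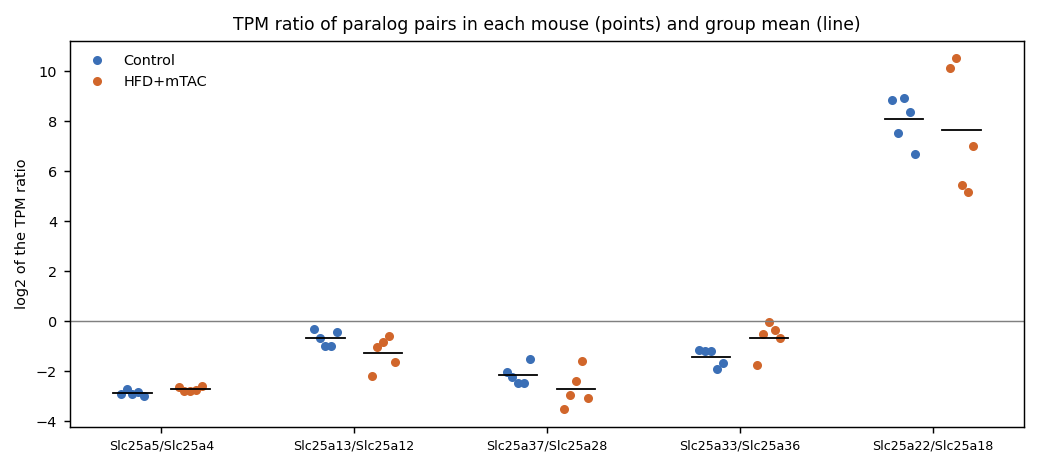
Log2 of the TPM ratio of the 5 pairs of related carriers in each control (blue) and HFD+mTAC mouse (orange), with the group mean as a line. The groups overlap in every pair, and the spread of Slc25a22/Slc25a18 among HFD+mTAC mice (SD 2.54) is the widest of the 5. In counts the SD of that ratio was 1.07, and Slc25a18 had 2 to 7 counts in those mice. The effective length of Slc25a22, which enters its TPM, was 501 and 532 bases in TT-588 and TT-589 and 3374 to 4095 in the other HFD+mTAC mice.

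The carriers resembling uncoupling proteins numbered 3. Slc25a30 (chr14:75760117-75787037, minus strand) had CPM of 19.4, 15, 15.2, 18.1 and 22.6 in the control mice and 16.8, 15.2, 21.2, 24.3 and 19.3 in the HFD+mTAC mice, with a log2 fold change of 0.10 (SE 0.15, edgeR adjusted p = 0.92). Slc25a14 (chrX:48623413-48662294, plus strand) had CPM of 2.93, 2.42, 1.76, 2.54 and 1.1 in the control mice and 2.11, 2.18, 2.92, 2.19 and 3.99 in the HFD+mTAC mice, with a log2 fold change of 0.31 (SE 0.29, edgeR adjusted p = 0.849). Both overlapped between groups, the value of Slc25a14 was -0.04 without the 2 libraries with skeletal muscle genes, and Slc25a27 had a log2 fold change of -0.13 with an SE of 0.29. Of the relatives that carry other names, Ucp3, the uncoupling protein of muscle, had CPM of 32.8, 40.7, 45.1, 43.2 and 35.2 in the control mice and 87.3, 88.6, 80.2, 36.7 and 71.8 in the HFD+mTAC mice, with a log2 fold change of 0.89 (SE 0.20, edgeR adjusted p = 0.199). It was above every control in 4 HFD+mTAC mice, while TT-591 at 36.7 lay within the control range. Ucp2 had CPM of 71.7, 64.8, 49.5, 55.1 and 82.3 in the control mice and 71.9, 84.2, 114, 114 and 91 in the HFD+mTAC mice, with a log2 fold change of 0.56 (SE 0.16, edgeR adjusted p = 0.309). Of the 4 relatives tested, 3 had an unadjusted p under 0.05 (Ucp3 and Ucp2 higher, the outer membrane relative Mtch2 lower at -0.16), against 8.27% of all tested genes, and none passed the test. These relatives too were listed with earlier results of these data known. Without the 2 libraries with skeletal muscle genes the log2 fold change was 0.86 for Ucp3 and 0.67 for Ucp2, and without the 3 of low mitochondrial share it was 0.83 and 0.63.

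The 7 remaining members were grouped as other and less characterized carriers, and 3 of them had an unadjusted p under 0.05, against 8.27% of all tested genes. Slc25a45 (chr19:5877808-5885878, plus strand) had CPM of 3.41, 4.94, 2.5, 3.17 and 0.787 in the control mice and 5.64, 5.32, 8.46, 6.49 and 5.59 in the HFD+mTAC mice. The means were 2.96 ± 1.51 CPM in control mice and 6.3 ± 1.29 CPM in HFD+mTAC mice (SD, n = 5 each), with a log2 fold change of 1.07 (SE 0.34, edgeR adjusted p = 0.376). All 5 HFD+mTAC mice lay above every control mouse, and TT-587 was the lowest of all at 0.787 CPM. In TPM the groups overlapped, since the control mouse TT-584 had 0.533 and HFD+mTAC mice 0.292 to 0.626. The log2 fold change was 0.84 to 1.33 when single mice were left out, 0.88 without the 2 libraries with skeletal muscle genes, 1.57 without the 3 of low mitochondrial share and 0.96 with transcript length in the fit, where the unadjusted p was above 0.05. DESeq2 gave an adjusted p of 0.0989. Its estimated count was 10.2 to 93.7 in control and 88 to 110 in HFD+mTAC libraries and was not whole in 7 of 10 mice.

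Slc25a34 and Slc25a35 are close relatives of each other whose means lay on opposite sides. Slc25a34 (chr4:141618824-141623821, minus strand) had CPM of 161, 170, 193, 153 and 111 in the control mice and 186, 222, 191, 163 and 206 in the HFD+mTAC mice, with a log2 fold change of 0.30 (SE 0.13, edgeR adjusted p = 0.597). Again each HFD+mTAC mouse lay above the control median, 2 of them above every control mouse. The log2 fold change was 0.19 with transcript length in the fit and 0.17 without the 2 libraries with skeletal muscle genes, with an unadjusted p above 0.05 in both. When single mice were left out, the unadjusted p of Slc25a34 was under 0.05 in 3 of the 10 fits. Slc25a35 (chr11:68968131-68974365, plus strand) had CPM of 14.5, 12.1, 12.3, 18.5 and 13.8 in the control mice and 10.7, 9.8, 11.1, 10.5 and 13.6 in the HFD+mTAC mice, with a log2 fold change of -0.35 (SE 0.14, edgeR adjusted p = 0.525). Here 4 HFD+mTAC mice lay below every control mouse and TT-592 at 13.6 CPM among them. The difference was -0.45 without the 2 libraries with skeletal muscle genes and -0.50 without the 3 of low mitochondrial share. It was -0.43 to -0.24 when single mice were left out, with an unadjusted p under 0.05 in 5 of the 10 fits, and -0.30 with limma on log2(TPM + 1), with an unadjusted p above 0.05. The other 4 carriers of this group had log2 fold changes of -0.08 to 0.23, with standard errors up to 0.71 for Slc25a43.

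Promoter sequence was examined for every carrier with a matched window. RefSeq windows of 250 bases before and 50 after a transcription start (GRCm38.p6) were matched for 32 of the 41 carriers by symbol. In 34 of the 41 windows checked, bases after the start were found near the beginning of an annotated transcript of the gene. The other windows were kept. NRF1 is a regulator of nuclear genes for mitochondrial proteins, and its motif is GCGCA, any base, GCGC. That motif was found on either strand in 2 of the 32 genes, Slc25a3 and Slc25a31. By window it was in 2 of the 41 windows of these carriers, against 4.6% of all 32851 promoter windows. The hexamer AGGTCA, the core that receptors of the PPAR and ERR type bind, was found on either strand in 4 of the 32 genes. These were Slc25a34, Slc25a39, Slc25a45 and Slc25a47. By window it was in 4 of the 41 windows of carriers, against 16.3% of all windows. A match is a description of these letters and not a bound site. Among the carriers with unadjusted p under 0.05, Slc25a4, Slc25a18, Slc25a20, Slc25a23 and Slc25a42 held neither motif in their windows, and Slc25a35 had no matched window. The stretches before the annotated genes are shown for the second most abundant carrier and for 2 carriers with unadjusted p under 0.05. They were chosen because each holds a match, which is in capitals. They lie at chr10:91124060-91124217 (minus strand), chr4:141623835-141624084 (minus strand) and chr19:5877572-5877807 (plus strand), and are written 5′ to 3′.
Slc25a3: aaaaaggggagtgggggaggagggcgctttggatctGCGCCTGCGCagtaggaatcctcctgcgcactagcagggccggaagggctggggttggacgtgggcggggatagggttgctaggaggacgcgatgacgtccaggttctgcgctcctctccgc
Slc25a34: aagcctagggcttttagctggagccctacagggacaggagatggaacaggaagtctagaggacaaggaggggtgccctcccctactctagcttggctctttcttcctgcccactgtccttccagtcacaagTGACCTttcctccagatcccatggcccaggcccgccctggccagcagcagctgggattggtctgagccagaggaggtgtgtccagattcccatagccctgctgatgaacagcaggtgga
Slc25a45: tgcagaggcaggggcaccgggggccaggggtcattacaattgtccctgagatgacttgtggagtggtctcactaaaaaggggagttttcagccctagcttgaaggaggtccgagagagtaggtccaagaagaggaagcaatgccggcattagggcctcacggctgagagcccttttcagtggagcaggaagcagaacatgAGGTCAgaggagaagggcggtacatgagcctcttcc

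Counts and TPM differed in pattern for some carriers. TPM divides each count by an effective transcript length, which the authors' quantification estimated anew in every library. The length differed by more than 2 times between mice for 9 of the 41 carriers (22%) and for 27% of all tested genes. Slc25a22 had effective lengths, in bases, of 3353, 3514, 3699, 3670 and 3808 in the control mice and 501, 532, 3543, 4095 and 3374 in the HFD+mTAC mice. Its TPM were 2.28, 2.07, 1.91, 1.94 and 1.25 in the control mice and 12.3, 12.6, 1.92, 1.17 and 2.68 in the HFD+mTAC mice. TT-588 and TT-589 had 12.3 and 12.6 TPM at 501 and 532 bases, while their CPM, 40 and 51.7, lay within the range of the other mice. The estimated count of Slc25a22 was not whole in 10 of 10 mice, so its CPM is uncertain too. The annotation (GENCODE M21) lists 25 transcripts of this gene, from 170 to 5590 bases.

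The same was seen on a smaller scale in Slc25a12, with effective lengths of 1362 and 1897 bases in TT-588 and TT-592 against 3023 to 3733 in the other mice. Its TPM in those 2 mice were 34.2 and 25.3, against 7.87 to 14.9 elsewhere. Slc25a51, the NAD carrier, had lengths of 3706, 2578 and 1839 bases in TT-584, TT-586 and TT-588 and of 8194 to 10067 in the others, so short lengths occurred in both groups. Slc25a4 varied by 1.27 times only. When the lengths entered the fit, Slc25a22 had a log2 fold change of 1.84, Slc25a12 0.51 and Slc25a36 -0.49, the first and last with an unadjusted p under 0.05. Slc25a23 was 0.35 in that fit, also with an unadjusted p under 0.05, and Slc25a14 was 0.79, Slc25a39 0.27, Slc25a11 -0.24, Slc25a37 -0.29, Slc25a3 -0.22, Slc25a13 -0.18 and Slc25a30 0.00. No carrier passed the test. The smallest adjusted p was 0.612 (edgeR).

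**Figure D5:**
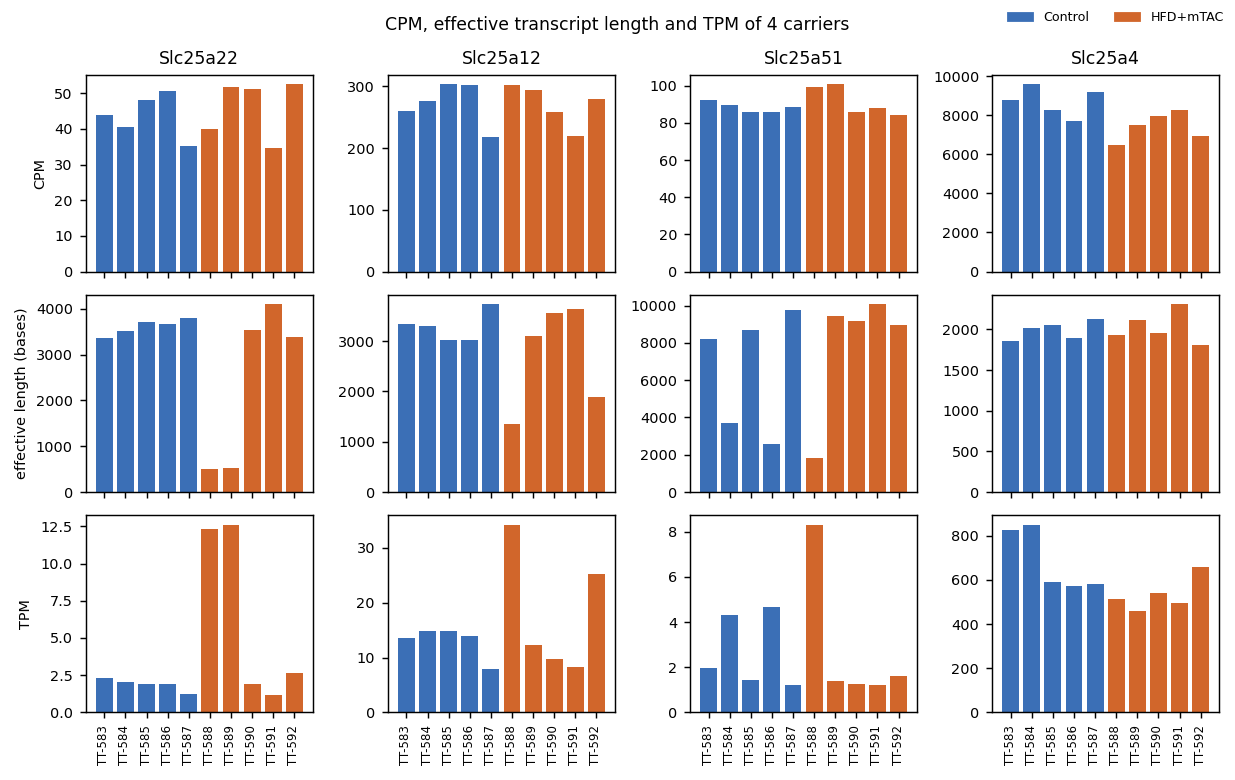
CPM (top row), effective transcript length in bases (middle row) and TPM (bottom row) of 4 carriers in each mouse, control mice in blue and HFD+mTAC mice in orange, every bar from 0. In Slc25a22 the bars of TT-588 and TT-589 are short in length and tall in TPM but not in CPM, while Slc25a4 shows no such step.

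Genes that serve the carriers were read from the same fit. Carrier proteins are made in the cytosol and inserted through the TOM70 and TIM22 route, and of 12 import genes tested 3 had higher and 9 lower means in HFD+mTAC mice, with no unadjusted p under 0.05. The smallest p belonged to the small chaperones Timm10b (log2 fold change -0.17) and Timm8a1 (-0.25). The pyruvate carrier is built of Mpc1 and Mpc2, which are not of the Slc25 family. Mpc1 had CPM of 867, 966, 853, 949 and 1019 in the control mice and 700, 836, 850, 797 and 732 in the HFD+mTAC mice, all HFD+mTAC mice below all controls, with a log2 fold change of -0.25 (SE 0.09, edgeR adjusted p = 0.428). Its unadjusted p was above 0.05 without the 2 libraries with skeletal muscle genes (log2 fold change -0.19) and without the 3 of low mitochondrial share (-0.24). Mpc2 had a log2 fold change of -0.15. Among 5 outer membrane channels and partners of ATP export, Vdac2, a pore of the outer membrane, had CPM of 677, 723, 718, 740 and 690 in the control mice and 616, 675, 664, 572 and 631 in the HFD+mTAC mice, also without overlap, with a log2 fold change of -0.17 (SE 0.07, edgeR adjusted p = 0.567). Without either set of libraries it was -0.18, with an unadjusted p above 0.05. Vdac3 followed at -0.13. Groups without overlap in the lower direction made up 0.888% of all tested genes.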

How the data were processed

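Left ventricles of 10 mice were profiled by poly(A) RNA-seq. Per the study's methods, the authors trimmed reads with fastp 0.23.3, estimated transcript levels with salmon 1.6.0 against a GRCm38 transcriptome with sequence, GC and position bias correction, and summed them by gene with tximport. The labels name hg38 and 100 base single-end reads, where the methods give a mouse transcriptome and 50 base paired-end reads, and this was not settled here. The deposited tables hold estimated counts and TPM, and the authors deposited effective lengths beside them as bases per gene. In the tables TPM equalled counts over length within a relative difference of 0.000507. Replicates were not pooled.

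Estimated counts were rounded to whole numbers. As in the study, protein-coding genes not encoded by the mitochondrion with at least 1 count in 9 of 10 mice were kept (13290), matched by symbol to GENCODE M21 (27812 of 29564 directly, 863 through an older symbol, 889 unmatched). Groups came from the labels. HFD+mTAC and control mice were compared with edgeR 4.0.16 (quasi-likelihood test, TMM, no covariate, R 4.3.3), with Benjamini-Hochberg adjustment over all genes tested and a threshold of 0.05. Ratios of related carriers were tested with two-sided exact permutation over all 252 arrangements. 6 pairs were planned and 5 compared, since Slc25a40 was listed at 0 in 4 mice. The fit was tested on simulated counts. Replicates of a group differed by more than sampling noise (chi-square per degree of freedom at least 12.9). Total counts were 34170139 to 53672260.

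Alternatives were DESeq2 1.42.0, limma 3.58.1 on log2(TPM + 1) and log2(TPM + 0.1), lengths as offset, other scalings and filters, and leaving out each mouse. The members and gene lists were chosen with earlier results of these data known. Members named with values in every mouse were the 6 of highest mean TPM, the 8 of smallest p, the highest and the smallest p of each role, any without overlap in CPM and the paired carriers, and for partners the 2 of smallest p in each list. Crat, Cpt1b, Mtch2 and Mpc2 and the carriers given by fold change alone were named after their values were seen. Of the 41 carriers, 1 enters the counts but is not reported here by name. Protein sequences were not used here.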

Additional observations from a re-analysis of the deposited data

Results flagged for a closer look

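In 4 of 90 groups of 5 mice examined (40 carriers and each paralog ratio in each group), 1 mouse lay far from the other 4 by Dixon's criterion, and chance alone flags about 1 group in 20. Slc25a25, an ATP-Mg/phosphate carrier, was 87.7 CPM in the control mouse TT-584 against 46.7 to 56.0 in the others. Slc25a26 was 23.0 CPM in the control mouse TT-583 against 16.4 to 17.4. Slc25a32 was 25.3 CPM in the control mouse TT-586 against 19.6 to 21.1. Slc25a17, a peroxisomal carrier of cofactors, was 23.9 CPM in the HFD+mTAC mouse TT-591 against 18.5 to 19.6.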

How the results depend on the processing

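No carrier was called under any alternative run, and the median log2 fold change of the 41 carriers was 0.00 to 0.06. Over all genes the 8 calls became 118 with DESeq2, 1 with limma on log2(TPM + 1) or log2(TPM + 0.1), 1 with lengths as offset, 1 without the 2 libraries with skeletal muscle genes, 2 without the 3 libraries of low mitochondrial share, and 1 to 9 when single mice were left out. The last 2 sets of libraries were chosen after seeing the data, and without them 6 and 4 carriers had an unadjusted p under 0.05. Fewer mice enter the fits that leave out libraries, and for the others the cause was not tested.

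The sign of the log2 fold change differed for 3 of the 41 carriers with lengths as offset, 3 with limma on log2(TPM + 1), none with DESeq2, 5 without the 2 libraries with skeletal muscle genes and 8 without the 3 libraries of low mitochondrial share. Among carriers given with values in every mouse, Slc25a12 was 0.00 with upper-quartile scaling, 0.43 with limma at either pseudocount, 0.51 with lengths as offset and -0.08 to 0.06 when single mice were left out. Without the 2 libraries with skeletal muscle genes Slc25a39 was 0.00, Slc25a22 -0.05 and Slc25a14, reported at 0.31, -0.04, and without the 3 libraries of low mitochondrial share Slc25a5 was 0.01 and Slc25a22 -0.01. When single mice were left out, Slc25a5 was -0.09 to -0.01, Slc25a22 0.01 to 0.16, Slc25a39 0.02 to 0.10, Slc25a30 0.01 to 0.19, Slc25a14 0.12 to 0.45, Slc25a37 -0.21 to -0.05 and Slc25a13 -0.17 to -0.05.

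When single mice were left out, the log2 difference of Slc25a5/Slc25a4 was 0.14 to 0.21 and missed 0.05 without any of 7 mice (exact permutation p = 0.0635 to 0.0794), that of Slc25a13/Slc25a12 was -0.73 to -0.34, that of Slc25a37/Slc25a28 -0.85 to -0.37 (p = 0.0476 without TT-591), that of Slc25a33/Slc25a36 0.61 to 1.03 (p = 0.0159 without TT-588) and that of Slc25a22/Slc25a18, which rests on 1 to 7 counts of Slc25a18 per mouse, -1.14 to 0.20. The last ratio also rests on the short effective lengths of Slc25a22 in TT-588 and TT-589. No paired analysis was possible because the groups share no replicate numbers. With 5 mice a group, the median standard error of the log2 fold change was 0.13 over the carriers. This is not the smallest difference that would pass the test, since Slc25a45 at 1.07 had an edgeR adjusted p of 0.376.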
